A study of Mus musculus with 7 samples.

Results

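A set of 10 genes of the inflammasome and of pyroptosis was examined in mouse retinal pigment epithelium (RPE): the sensors Nlrp3, Nlrp1b, Nlrc4 and Aim2, the adaptor Pycard, the caspases Casp1 and Casp4, the pore former Gsdmd, and the NLRP3 partners Txnip and Nek7. They were taken by name from a count table of 52740 gene identifiers, and all 10 were found. The messenger RNAs of Casp1, Casp4 and Txnip were 4.10-fold, 2.61-fold and 2.08-fold as high in LC3b-/- as in WT mice. Every LC3b-/- library lay above every WT library for these 3 genes, while 22.3% of all genes tested had groups that did not overlap in either direction. No member passed an adjusted p of 0.05 in the edgeR quasi-likelihood test, where Casp1 had the smallest adjusted p (0.0995). That test called 0.235% of all genes at this threshold with a fold change of at least 1.5. DESeq2 called 10.8% of all genes, and these 3 members among them. Nlrp3 and Nek7 had log2 fold changes of 0.15 (SE 0.27) and 0.00 (SE 0.14), and Pycard was both highest and lowest in LC3b-/- libraries.

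An inflammasome is a protein platform that assembles in the cytosol when a sensor meets a microbial product or a sign of cell damage. The sensor recruits caspase-1, often through the adaptor ASC, and caspase-1 matures the cytokines IL-1β and IL-18 and cleaves gasdermin D, whose released part opens pores in the plasma membrane and can end in the lytic death called pyroptosis. Most of this machinery is controlled after transcription, so messenger RNA levels describe its supply and not its activity. In the RPE, the pigmented layer that nourishes photoreceptors and digests their shed tips, the NLRP3 inflammasome has been studied mainly in connection with lipid deposits and macular degeneration.

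The comparison was between 4 WT mice (3 females, named F1, F2 and F3, and 1 male, M1) and 3 LC3b-/- mice (2 females, F1 and F3, and 1 male, M), each with 1 library. All were 24 months old, and no treatment is named. The knockout is present in every cell of the body and removes LC3b, encoded by Map1lc3b, which is attached to autophagosomes and to phagosomes. LC3b-/- mice came from a line made on a mixed background (B6;129P2) while WT mice were C57BL6/J, and the mouse names carry group numbers that never coincide between genotypes. Strain background and mouse group therefore cannot be told apart from genotype. The comparison asks which RPE messenger RNAs differ in old mice that lack LC3b. Cells were released with hyaluronidase and trypsin from eyecups without cornea, ciliary body and lens, so they are an enriched layer and not a sorted population.

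The libraries held 24495952 to 35616134 estimated counts, and 16990 genes passed the filter on low counts. Map1lc3b, the targeted gene, was at 104 to 130 CPM (counts scaled to library size) in WT and at 6.76 to 8.33 CPM in LC3b-/-, a log2 fold change of -3.98 (SE 0.15). RPE markers were abundant in every library, with a summed level over 12 genes of 30500 to 47800 CPM in WT and 13700 to 28400 CPM in LC3b-/-. Markers of other cells also differed between libraries. The 11 genes of ocular surface epithelium summed to 10.2 to 2490 CPM in WT and to 3510 to 25600 CPM in LC3b-/-, highest in LC3b-/- F1 and lowest in WT F3. The 7 endothelial genes summed to 185 to 607 CPM in WT and to 733 to 777 CPM in LC3b-/-. The 17 macrophage and microglia genes overlapped (612 to 835 CPM against 704 to 1440 CPM), 8 of them being higher and 9 lower in LC3b-/-. The 9 neutrophil genes summed to 3.74 to 12.1 CPM in WT and to 6.44 to 12.2 CPM in LC3b-/-. S100a8, S100a9, Camp and Csf3r had counts in every library, while Mpo was at 0 in all and Ly6g at 0 in all but LC3b-/- F3, where it had 2 counts. In bulk libraries, more cells of a type and more RNA per cell cannot be told apart.

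**Figure D1:**
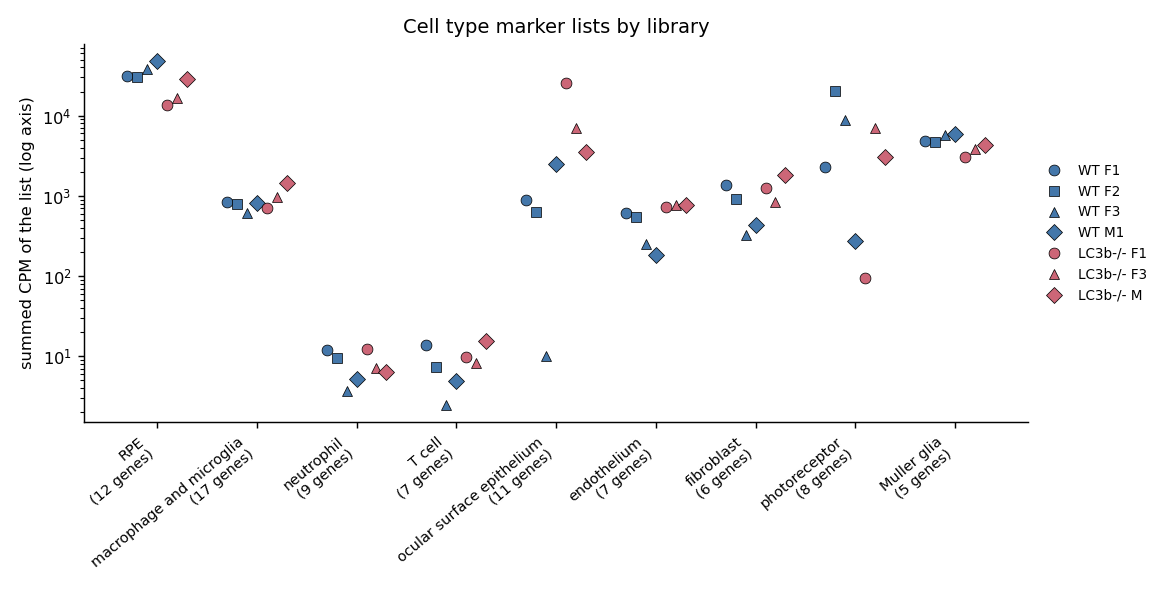
Summed CPM of each cell type marker list (logarithmic vertical axis) in each library; blue symbols are WT, red symbols LC3b-/-, and the number of genes in a list stands under its name. The RPE list lies lower in the 3 LC3b-/- libraries, and the lists of ocular surface epithelium and endothelium lie higher in them.

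Of the 10 members, 9 passed the filter on low counts, and Nlrc4 did not. In the edgeR fit 3 of the 9, all higher in LC3b-/-, had an unadjusted p under 0.05, where 24.1% of all genes tested did so in either direction and 13.5% did so upwards. Likewise, 3 of the 9 had groups that did not overlap, where 22.3% of all genes tested did so. None of the 9 was called at an adjusted p under 0.05 with a fold change of at least 1.5, where 0.235% of all genes tested were called. Of the 9, 8 had a positive log2 fold change, where 51.2% of all genes tested did. The median log2 fold change of the 9 members was 0.92 and that of all genes tested 0.01. With DESeq2, which called 10.8% of all genes tested, 3 members were called, namely Casp1, Casp4 and Txnip. Leaving out single libraries moved the members' counts: without WT F1, 6 members had an unadjusted p under 0.05 (28.6% of all genes) and 7 had separate groups (35.8% of all genes). Without LC3b-/- F1, 2 members had an unadjusted p under 0.05 (13.8% of all genes), and without WT F3 and LC3b-/- F1 together 6 had separate groups (31.1% of all genes).

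**Figure D2:**
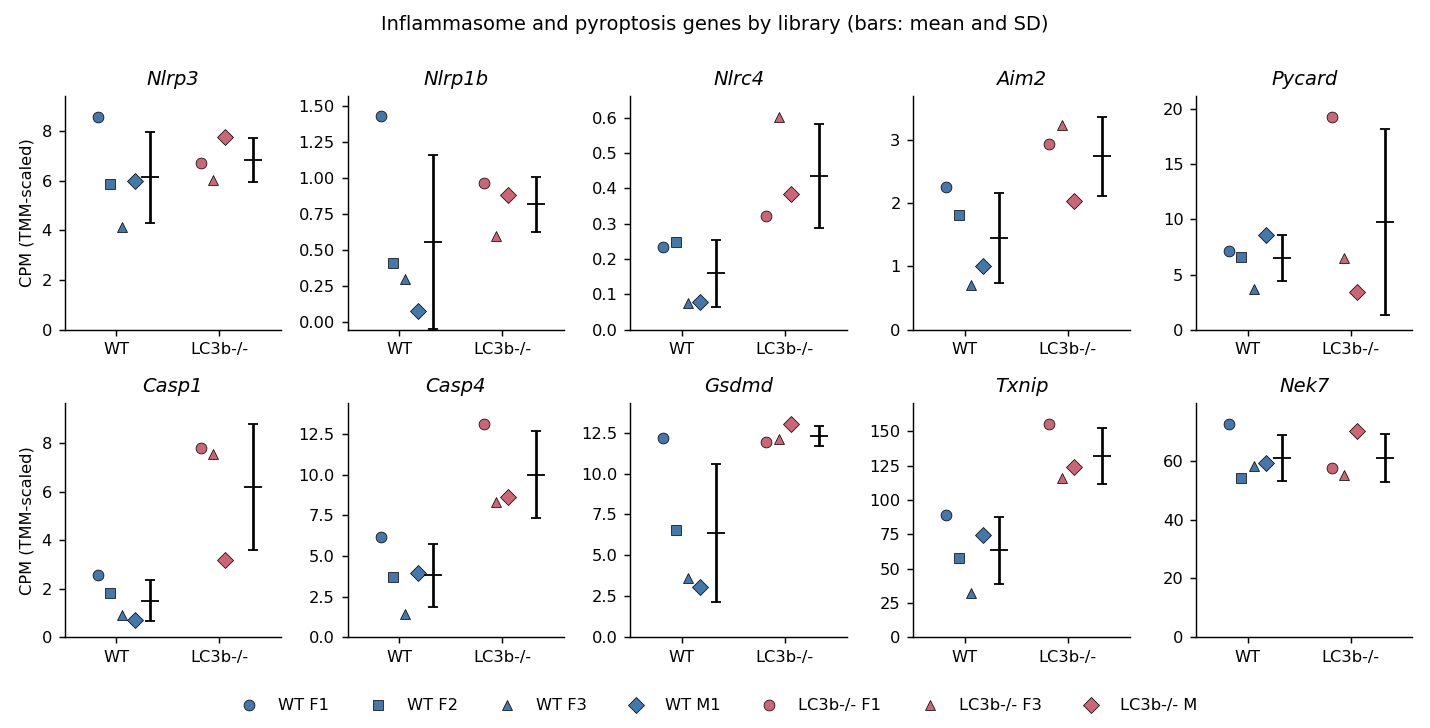
CPM of each of the 10 genes in each library, with one panel and one linear axis per gene; blue symbols are WT, red symbols LC3b-/-, horizontal bars the group mean and vertical bars the SD over 4 WT and 3 LC3b-/- libraries. All red symbols lie above all blue symbols for Casp1, Casp4, Txnip and Nlrc4, and WT F1 (blue circle) is the highest WT library in 8 of the 10 panels.

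Levels between genes were compared per kilobase of the canonical transcript. In WT, Txnip was the most abundant member at 22.3 ± 8.57 CPM per kilobase (SD, n = 4), followed by Nek7 at 11.5 ± 1.49. Gsdmd (3.22 ± 2.13), Casp4 (2.66 ± 1.35), Pycard (1.58 ± 0.502), Nlrp3 (1.53 ± 0.456), Casp1 (0.979 ± 0.553) and Aim2 (0.696 ± 0.344) came next, and each of these differed from its neighbour in that order by less than the larger SD of the pair. Nlrp1b (0.135 ± 0.146) and Nlrc4 (0.0333 ± 0.0201) were the lowest. In LC3b-/- the order was the same for the first and the last members, but Casp4 (6.95) stood beside Gsdmd (6.24), and Casp1 (4.04) stood above Pycard (2.37) and Nlrp3 (1.70). This order depends on the transcript taken for each gene. The WT level of Pycard is 1.56 CPM per kilobase with its longest annotated transcript and 13.2 with its shortest, and the same range is 1.15 to 10.6 for Casp4, 2.79 to 15.7 for Gsdmd, 1.53 to 9.08 for Nlrp3 and 0.418 to 4.45 for Aim2.

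Among the sensors, Nlrp3, which responds to potassium efflux, crystals and many kinds of membrane damage, did not separate the genotypes. In WT it stood at 8.58 CPM in F1, 5.88 in F2, 4.12 in F3 and 6.0 in M1, and in LC3b-/- at 6.72 CPM in F1, 6.02 in F3 and 7.77 in M. All 3 LC3b-/- values lay inside the WT range, at a log2 fold change of 0.15 (SE 0.27; edgeR, unadjusted p = 0.585, adjusted p = 0.756), and it was -0.01 without WT F3.

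Aim2, a sensor of double-stranded DNA in the cytosol, was at 2.25, 1.82, 0.711 and 1.00 CPM in the WT libraries and at 2.94, 3.23 and 2.04 CPM in the LC3b-/- libraries, in the order given above. Only WT F1 reached into the LC3b-/- range, above LC3b-/- M. Its log2 fold change was 0.92 (SE 0.45; edgeR, unadjusted p = 0.0766, adjusted p = 0.254), and an exact permutation test gave p = 0.143, two-sided. On chromosome 1 (173178445 to 173293930, GRCm39) Aim2 overlaps Cadm3 on the opposite strand. The libraries are stranded, but whether the counting used the strand is not given in the sources used here.

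Nlrp1b, a sensor that is activated when proteases or pathogen enzymes degrade its amino-terminal part and whose locus varies between inbred mouse strains, was near the limit of detection. Its counts were 49, 10, 8 and 2 in WT and 24, 24 and 30 in LC3b-/-. WT F1 alone was above all LC3b-/- libraries, and the other 3 WT libraries were below all of them. Its log2 fold change was 0.53 (SE 0.82; edgeR, adjusted p = 0.723), and it was 1.62 without WT F1. When its reads were summed with those of the paralogs Nlrp1a and Nlrp1c-ps, it was 0.83 (SE 0.81; edgeR, adjusted p = 0.557).

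Nlrc4, which assembles with NAIP proteins that bind flagellin and secretion-system proteins, was the least abundant member. It had 8, 6, 2 and 2 counts in WT and 8, 24 and 13 in LC3b-/-, too few for the filter. In CPM the LC3b-/- libraries (0.322, 0.602 and 0.384) were above all WT libraries (0.0749 to 0.249), and the exact permutation test gave p = 0.0571, two-sided. A fit without the filter gave a log2 fold change of 1.43 (SE 0.76; edgeR, adjusted p = 0.383). Its transcripts share a repeat with many other genes, so these few counts are uncertain. They also share 867 bases with the overlapping gene Slc30a6 on the opposite strand, where the limit given for Aim2 and Cadm3 holds too.

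The adaptor and the caspases came next in the pathway. Pycard encodes ASC, which links sensors to caspase-1 and polymerizes into a speck. It was at 7.11, 6.63, 3.67 and 8.61 CPM in WT and at 19.3, 6.49 and 3.43 CPM in LC3b-/-. A single library, LC3b-/- F1, held the highest value of all and LC3b-/- M the lowest, so the LC3b-/- coefficient of variation was 86.5% against 31.8% in WT. Its log2 fold change was 0.58 (SE 0.57; edgeR, unadjusted p = 0.341, adjusted p = 0.561), and without LC3b-/- F1 it was -0.39. Pycard followed the order of the ocular surface markers within each group: both were highest in M1 and lowest in F3 among WT, and highest in F1 and lowest in M among LC3b-/-. That pair was picked after the values were seen, and the part of those cells in the Pycard level was not tested.

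Casp1, the protease that matures IL-1β and IL-18, had the largest log2 fold change among the 9 members tested. It stood at 2.55, 1.82, 0.899 and 0.730 CPM in WT and at 7.81, 7.55 and 3.19 CPM in LC3b-/-. The lowest LC3b-/- library, M, lay 0.32 above the highest WT library, F1, on the log2 scale. Means were 1.5 ± 0.847 CPM (SD, n = 4) and 6.18 ± 2.60 CPM (SD, n = 3). The log2 fold change was 2.04 (SE 0.52; edgeR, unadjusted p = 0.00513, adjusted p = 0.0995), rank 877 by p among the 16990 genes tested. The exact permutation test gave p = 0.0571, two-sided, where 0.0286 is the smallest value that 4 against 3 libraries allow. DESeq2 gave an adjusted p of 0.00446 at a log2 fold change of 2.03. Among LC3b-/- libraries its order, F1 then F3 then M, was that of the ocular surface markers. Among WT libraries it was not that of these markers but that of the endothelial markers. Leaving out each library in turn gave log2 fold changes from 1.81 to 2.43. Without both WT F3 and LC3b-/- F1, the libraries at the extremes of the ocular surface markers, it was 1.65 (SE 0.64; edgeR, unadjusted p = 0.0434). That pair was chosen after the data were seen. In the libraries that remain, the ocular surface sums were still apart (630 to 2490 CPM in WT, 3510 to 7030 CPM in LC3b-/-). This fit therefore does not test the part of those cells for any gene.

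Casp4, the mouse caspase also called caspase-11, binds cytosolic lipopolysaccharide and cleaves gasdermin D without a canonical inflammasome. It was at 6.20, 3.69, 1.46 and 3.96 CPM in WT and at 13.1, 8.30 and 8.65 CPM in LC3b-/-. The groups were apart by 0.42 on the log2 scale, and WT F3 was the lowest. The log2 fold change was 1.38 (SE 0.44; edgeR, unadjusted p = 0.0153, adjusted p = 0.134), and DESeq2 gave an adjusted p of 0.0316. Leaving out single libraries gave 1.11 (without WT F3) to 1.72 (without WT F1). Without LC3b-/- F1 it was 1.14, with an unadjusted p of 0.0575 in edgeR. Without both WT F3 and LC3b-/- F1 it was 0.85 (SE 0.30; edgeR, unadjusted p = 0.0300).

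Casp1 (ENSMUSG00000025888) and Casp4 (ENSMUSG00000033538) are neighbours on chromosome 9 of GRCm39 (5298508 to 5307290 and 5308828 to 5336783), with 1537 bases between them. The next gene of the cluster, Casp12, lies 8631 bases beyond Casp4. Casp12, an inflammatory-type caspase linked to the endoplasmic reticulum, was at 8.84, 3.94, 1.72 and 2.96 CPM in WT and at 8.66, 7.20 and 8.42 CPM in LC3b-/-. WT F1 was above all LC3b-/- libraries, and the log2 fold change was 0.89 (SE 0.50; edgeR, unadjusted p = 0.119). Elsewhere in GRCm39, Txnip (ENSMUSG00000038393) lies on chromosome 3 (96465267 to 96469201), Gsdmd (ENSMUSG00000022575) on chromosome 15 (75733974 to 75739257) and Pycard on chromosome 7 (127588558 to 127593039). Nlrp3 (59432394 to 59457782) and Nlrp1b (71043928 to 71121559) are on chromosome 11, Nlrc4 is on chromosome 17 (74732433 to 74766165), and Nek7 is on chromosome 1 (138410613 to 138550306). None of the 10 members is on chromosome 8, where Map1lc3b lies.

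Promoter sequences are shown for Casp1 and Casp4, and for Txnip further on. These are the members tested whose groups did not overlap. Theirs were also the only windows of members with a match to a motif searched. The NF-kB-type letters were chosen after a looser form matched too many windows, and Gsdmd had no window. A link between matches and separate groups was not tested. Windows of 300 bases, 250 before and 50 from the start site, were taken from RefSeq on GRCm38.p6, and 9 of the 10 members had one. Both strands were searched for an NF-kB-type motif (GGG and TTCC with 3 free bases between them), an ISRE-type motif (GAAA and GAAA, 2 free bases), a GAS-type motif (TTC and GAA, 3 free bases), a carbohydrate response element (ChoRE, CACGNG and CACGNG, 5 free bases) and an E-box (CACGTG), which can lie inside a ChoRE. Of 32851 windows of all genes, 5.56% held the first, 3.44% the second, 8.30% the third, 0.0487% the fourth and 7.15% the fifth. Capitals mark the matches in the windows of Casp1 (chr9:5298267-5298566, plus strand) and Casp4 (chr9:5308599-5308898, plus strand).
Casp1: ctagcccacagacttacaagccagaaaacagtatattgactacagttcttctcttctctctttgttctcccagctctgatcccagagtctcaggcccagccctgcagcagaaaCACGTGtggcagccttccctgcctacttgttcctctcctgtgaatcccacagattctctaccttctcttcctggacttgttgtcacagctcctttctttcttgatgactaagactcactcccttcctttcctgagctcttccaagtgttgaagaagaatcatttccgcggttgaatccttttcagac
Casp4: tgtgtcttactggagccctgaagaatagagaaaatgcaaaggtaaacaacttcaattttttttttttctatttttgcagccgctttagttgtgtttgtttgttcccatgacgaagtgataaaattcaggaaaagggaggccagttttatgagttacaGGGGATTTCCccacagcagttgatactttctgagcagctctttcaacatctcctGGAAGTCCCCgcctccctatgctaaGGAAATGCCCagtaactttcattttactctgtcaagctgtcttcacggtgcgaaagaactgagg
The Casp1 window held 1 E-box, which begins 137 bases before the start. The Casp4 window held 3 NF-kB-type matches, which begin 93, 39 and 14 bases before the start. The windows of Nlrp3, Nlrp1b, Nlrc4, Aim2, Pycard and Nek7 held none of the 5 motifs, which says only that these letters are not in these windows.

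Gsdmd, the pore former cut by caspase-1 and caspase-11, was at 12.2, 6.55, 3.59 and 3.08 CPM in WT and at 11.9, 12.1 and 13.0 CPM in LC3b-/-. The LC3b-/- libraries were nearly equal, with a coefficient of variation of 5.0% against 66.0% in WT, and WT F1 was level with them. The other 3 WT libraries were below every LC3b-/- library by at least 0.85 on the log2 scale. The log2 fold change was 0.95 (SE 0.46; edgeR, unadjusted p = 0.0760, adjusted p = 0.253), and it was 1.48 (unadjusted p = 0.00266, adjusted p = 0.0645, edgeR) without WT F1. Among WT libraries Gsdmd followed the order of the endothelial marker sum, which was 607, 553, 250 and 185 CPM, and so did Casp1 and Nlrp1b. Among LC3b-/- libraries, where that sum was 733, 777 and 767 CPM, Gsdmd did not follow it. The pair of Gsdmd and these markers too was picked after the values were seen. The part of endothelial cells in the levels of these members was not tested.

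**Figure D3:**
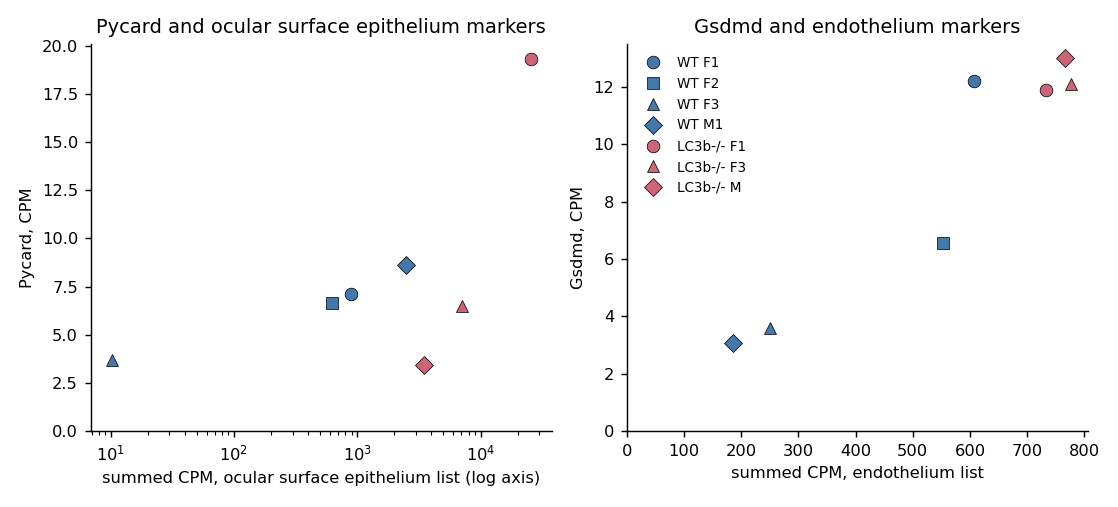
Left, Pycard CPM against the summed CPM of ocular surface epithelium markers (logarithmic horizontal axis); right, Gsdmd CPM against the summed CPM of endothelium markers (linear axes), 1 point per library, blue WT and red LC3b-/-. LC3b-/- F1 is highest on both axes on the left, and WT F3 and WT M1 are lowest on both axes on the right.

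Of the NLRP3 partners, Txnip binds thioredoxin, restrains glucose uptake and has been reported to bind NLRP3 under oxidative stress. It was at 88.9, 57.9, 32.2 and 74.3 CPM in WT and at 155, 116 and 124 CPM in LC3b-/-. The groups were apart by 0.38 on the log2 scale, with WT F1 again the nearest to LC3b-/-. Means were 63.3 ± 24.3 CPM (SD, n = 4) and 132 ± 20.6 CPM (SD, n = 3). The log2 fold change was 1.06 (SE 0.32; edgeR, unadjusted p = 0.0112, adjusted p = 0.12), DESeq2 gave an adjusted p of 0.0233, and the exact permutation test gave p = 0.0571, two-sided. Leaving out single libraries gave 0.83 to 1.27, and without both WT F3 and LC3b-/- F1 it was 0.68 (SE 0.19; edgeR, unadjusted p = 0.0124). An antisense gene that shares 449 bases with Txnip, Gm15441, had 84 counts in all libraries together.

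The Txnip window (chr3:96557707-96558006, plus strand, GRCm38.p6, RefSeq) held the ChoRE, the motif bound by the glucose-sensing factors MondoA and ChREBP, which 16 of the 32851 windows held. Capitals mark this match, which begins 85 bases before the start.
Txnip: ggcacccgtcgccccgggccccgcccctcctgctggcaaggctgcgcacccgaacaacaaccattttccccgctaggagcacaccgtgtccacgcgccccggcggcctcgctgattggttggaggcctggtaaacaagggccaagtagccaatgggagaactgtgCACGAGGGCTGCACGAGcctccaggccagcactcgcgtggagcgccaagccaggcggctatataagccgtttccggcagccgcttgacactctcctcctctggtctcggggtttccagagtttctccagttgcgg
Arrdc4, an arrestin-domain relative of Txnip that responds to glucose through the same factors, was at 3.15 to 8.90 CPM in WT and at 44.5, 22.1 and 12.1 CPM in LC3b-/-. Its groups did not overlap, at a log2 fold change of 2.10 (SE 0.49; edgeR, unadjusted p = 0.00295, adjusted p = 0.0951), and without LC3b-/- F1 it was 1.48. Its order among LC3b-/- libraries was that of the ocular surface markers, whose part in it was not tested. Of the factors themselves, Mlxip, which encodes MondoA, had a log2 fold change of 0.76 (edgeR, unadjusted p = 0.0235), and Mlxipl, which encodes ChREBP, one of 0.02 (edgeR, unadjusted p = 0.958). Mlxip had the same order among LC3b-/- libraries (24.0, 19.6 and 14.8 CPM), and the part of those markers in it was not tested.

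Nek7, a kinase that bridges NLRP3 subunits during assembly, was at 72.4, 54.2, 58.2 and 59.2 CPM in WT and at 57.5, 55.2 and 70.2 CPM in LC3b-/-. Both groups averaged 61.0 CPM, and it varied least among the members in WT, with a log2 fold change of 0.00 (SE 0.14; edgeR, unadjusted p = 0.991).

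**Figure D4:**
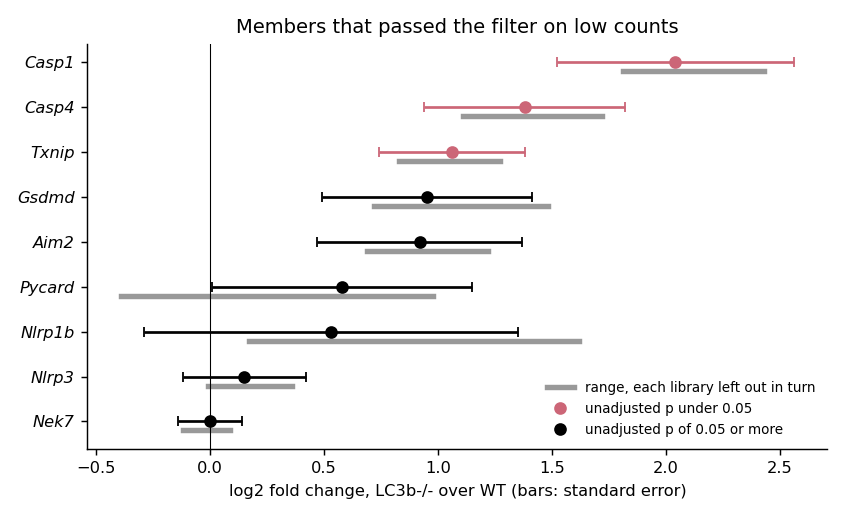
Log2 fold change of LC3b-/- over WT for the 9 members tested (points, with bars of 1 SE) and the range when each library is left out in turn (grey). Casp1, Casp4 and Txnip, in red, have an unadjusted p under 0.05, and the grey ranges of Pycard, Nlrp3 and Nek7 cross 0.

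The libraries themselves had an order that ran through the members. WT F1 was the highest WT library for 8 of the 10 members, and WT F3 the lowest for 6 and WT M1 for 3. In LC3b-/-, F1 was highest for 5, M for 3 and F3 for 2. Within females, groups stayed apart for Aim2, Casp1, Casp4 and Txnip among the members tested, where 42.5% of all genes did so, and for Nlrc4. Of the 1 male of each genotype, the LC3b-/- male was the higher for all members except Pycard. The LC3b-/- females share a group number in their names that the LC3b-/- male does not carry. Sex therefore cannot be told apart from mouse group among the LC3b-/- mice. For Pycard the difference was 1.00 in females and -1.31 in males on the log2 scale, with an interaction of -2.48 (edgeR, unadjusted p = 0.0527, adjusted p = 0.998). For Casp1 these differences were 2.20 and 2.03 (interaction 0.00, unadjusted p = 0.998, edgeR).

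For each member tested, the protein-coding gene with the most similar log2 CPM over the 7 libraries was sought, as a description of shared library patterns. The closest gene to Txnip was Casp4 (Pearson r 0.993). The closest to Casp1 was Dusp5, a nuclear phosphatase of ERK (r 0.994), and to Casp4 it was Htatip2 (r 0.993). Gsdmd ran closest to Mcam, an adhesion molecule of endothelium and pericytes (r 0.999), and Nlrp3 to Egr1, an immediate early gene (r 0.993). Aim2 was closest to Sp110 (r 0.993), Nlrp1b to Fat4 (r 0.996), Pycard to Xk (r 0.979) and Nek7 to Pttg1ip (r 0.974). With 7 libraries and 14928 protein-coding genes to choose from, high values of r were available to any gene, and library composition is shared by both genes of a pair.

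The other genes of the pathway were taken from a list of 95 genes in 6 roles, of which 82 passed the filter. Of these, 67 had a positive and 15 a negative log2 fold change. An unadjusted p under 0.05 was reached by 31 upwards and 3 downwards, against 13.5% and 10.6% of all genes tested, and none was called in the edgeR fit. Without WT F1, 6 pathway genes were called (1.28% of all genes), and without LC3b-/- M, 4 (2.76% of all genes). The list's median log2 fold change was 0.57. Values below are from the edgeR fit.

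**Figure D5:**
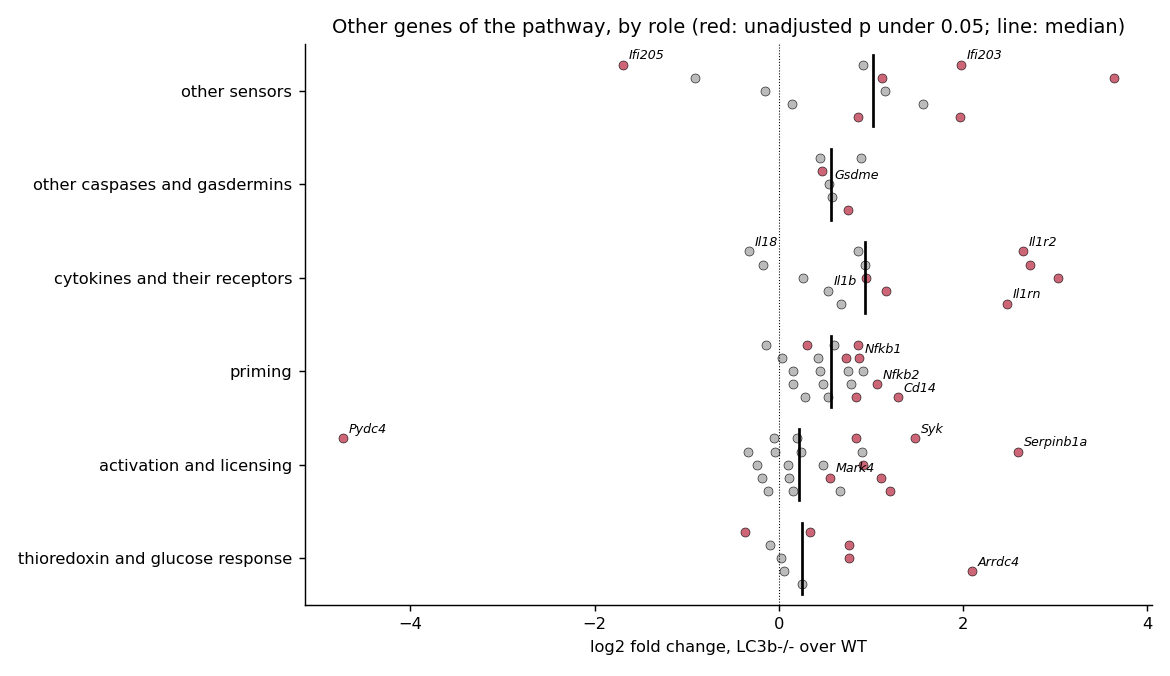
Log2 fold change of LC3b-/- over WT for the 82 pathway genes tested, 1 point per gene, grouped by role; red points have an unadjusted p under 0.05 and vertical bars are medians. The medians run from 0.22 for activation and licensing to 1.02 for the other sensors.

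The cytokine genes whose products caspase-1 matures had a small positive and a small negative log2 fold change. Il1b, the main cytokine matured by caspase-1, was at 24.2, 15.8, 8.72 and 9.03 CPM in WT and at 20.3, 13.5 and 29.0 CPM in LC3b-/-, with overlapping groups and a log2 fold change of 0.54 (SE 0.42; adjusted p = 0.456). Il18, the second cytokine, lay the other way: it was at 18.5, 16.6, 19.5 and 22.9 CPM in WT and at 16.3, 13.9 and 16.2 CPM in LC3b-/-. Every LC3b-/- library was below every WT library for Il18, at a log2 fold change of -0.32 (SE 0.15; adjusted p = 0.230). Gsdme, another pore-forming gasdermin, had a log2 fold change of 0.55 (SE 0.50; adjusted p = 0.526). Its order among LC3b-/- libraries (5.19, 4.01 and 2.42 CPM) was that of the ocular surface markers, whose part in it was not tested.

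Among the 13 cytokines and their receptors, all tested, 6 had an unadjusted p under 0.05 and all 6 were higher in LC3b-/-. Those with the smallest p act against IL-1 signalling. Il1r2, a decoy receptor, was at 1.43, 0.621, 0.337 and 0.423 CPM in WT and at 5.11, 4.36 and 4.02 CPM in LC3b-/- (log2 fold change 2.65, SE 0.51; adjusted p = 0.0869), and without WT F1 its log2 fold change was 3.28. Il1rn, which encodes the IL-1 receptor antagonist, was at 15.3, 9.41, 4.08 and 3.19 CPM against 52.4, 21.2 and 60.3 CPM (log2 fold change 2.48, SE 0.60; adjusted p = 0.0960). Both genes had separate groups, and in WT both were again highest in F1. The signalling receptor Il1r1 was 2.23-fold as high (unadjusted p = 0.0130). Il18r1, a receptor chain for IL-18, was at 1.76, 0.621, 0.187 and 0.231 CPM in WT and at 11.6, 3.86 and 1.98 CPM in LC3b-/-. In the fit it was 8.15-fold as high (unadjusted p = 0.0111). Il1r1 and Il18r1 had separate groups, and both were named here after their values were seen. The order of Il1r2, Il1r1 and Il18r1 among LC3b-/- libraries was that of the ocular surface markers, whose part in them was not tested.

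Among the 20 priming genes, which encode receptors, adaptors and factors that act on the transcription of inflammasome components, including restraints such as Nfkbia, Tnfaip3 and Irak3, 19 had a positive log2 fold change, 7 with an unadjusted p under 0.05, and the median was 0.57. Cd14, the lipopolysaccharide co-receptor, was at 46.9, 32.4, 19.3 and 24.9 CPM in WT and at 74.0, 81.3 and 73.6 CPM in LC3b-/- (log2 fold change 1.30, SE 0.28; adjusted p = 0.0906). The NF-kB subunit genes Nfkb2 (1.07, SE 0.26; adjusted p = 0.0960) and Nfkb1 (0.87, SE 0.23; adjusted p = 0.102) also had separate log2 CPM groups. Nfkb2 transcripts share 849 bases with the neighbouring gene Psd, so part of its count is uncertain. The LC3b-/- libraries were within a narrow range for Cd14, and WT F1 was the nearest WT library for all 3 genes.

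Of the 24 genes of activation and licensing, 22 were tested, with 7 upwards and 1 downwards at an unadjusted p under 0.05 and a median of 0.22. Syk, a kinase that phosphorylates ASC, had the smallest p of the whole list: it was at 12.1, 7.79, 6.07 and 8.27 CPM in WT and at 30.1, 19.7 and 22.2 CPM in LC3b-/- (log2 fold change 1.48, SE 0.26; unadjusted p = 5.88e-04, adjusted p = 0.0834). Serpinb1a, an inhibitor of neutrophil proteases that also restrains inflammatory caspases, was at 3.89 to 11.9 CPM in WT and at 82.5, 34.6 and 15.0 CPM in LC3b-/- (log2 fold change 2.60, SE 0.60; adjusted p = 0.0951), and without LC3b-/- F1 its log2 fold change was 1.77. Its order among LC3b-/- libraries was that of the ocular surface markers, whose part in it was not tested. Mark4, a kinase that places NLRP3 at the microtubule-organizing centre, had a log2 fold change of 0.56 (unadjusted p = 0.00257, adjusted p = 0.0945). Mark4 had the order of the ocular surface markers too among LC3b-/- libraries (43.2, 41.6 and 39.9 CPM), and their part in it was not tested. The one gene lower at an unadjusted p under 0.05 was Pydc4, a pyrin-only gene of the interferon-inducible cluster, named after its values were seen, with 47, 16, 2 and 16 counts in WT and 2, 0 and 0 in LC3b-/-. The mean over the WT libraries was at least 7.19-fold higher than a floor of 3 counts per library. WT F3 was itself at that floor, and the groups overlapped.

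Of the 16 other sensors, 12 were tested, with 5 upwards and 1 downwards at an unadjusted p under 0.05. The interferon-inducible DNA sensors near Aim2 on chromosome 1 differed in the sign of their log2 fold changes. Ifi203 was at 15.5, 8.66, 4.49 and 4.38 CPM in WT and at 40.6, 34.1 and 23.5 CPM in LC3b-/- (log2 fold change 1.98, SE 0.47; adjusted p = 0.0952), while it shares long stretches of near-identical sequence with Mndal and Ifi203-ps, among which reads may be split. Its order among LC3b-/- libraries was also that of the ocular surface markers, whose part in it was not tested. Ifi205, named after its values were seen, was lower in every LC3b-/- library (0.765, 0.777 and 1.33 CPM) than in every WT library (1.91 to 5.84 CPM), at a log2 fold change of -1.69 (SE 0.51; unadjusted p = 0.0115). Naip1, the partner of Nlrc4 that senses the secretion-system needle, was below the filter, with 0, 1, 2 and 2 counts in WT and 175, 154 and 3 in LC3b-/-, and reads may be split among the similar Naip genes. The mean over the LC3b-/- libraries was at least 33.3-fold higher than a floor of 3 counts per library, and it came from LC3b-/- F1 and F3 while M was at the floor. This order too was that of the ocular surface markers, whose part in Naip1 was not tested.

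Of the 13 other caspases and gasdermins only 6 passed the filter, all with a positive log2 fold change, and 7 gasdermin genes of the skin and gut type (Gsdma, Gsdma2, Gsdma3, Gsdmc, Gsdmc2, Gsdmc3 and Gsdmc4) did not. Ninj1, which ruptures the membrane after pore formation, had a log2 fold change of 0.47 (unadjusted p = 0.00737). Of the 9 genes of the thioredoxin and glucose response, 4 were higher and 1 lower at an unadjusted p under 0.05. Txn1, the cytosolic thioredoxin that Txnip binds, had a log2 fold change of 0.76 (unadjusted p = 0.0111), and Txn2, the mitochondrial form, one of -0.37 (unadjusted p = 0.0251).

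The macrophage and microglia markers gave a mixed picture beside these genes. Cx3cr1, Tmem119, P2ry12, Csf1r, Aif1, Ly86 and the C1q chains C1qa, C1qb and C1qc had negative log2 fold changes (-0.82 to -0.14). Ptprc (0.80), Tyrobp (0.67), Mrc1 (0.47), Adgre1 (0.36) and Fcer1g (0.33) had positive ones. The groups overlapped for all of these genes. Itgam (2.31), Lyz2 (1.21) and Cd68 (1.03) had separate groups and unadjusted p of 0.00274, 0.00632 and 0.0164 in edgeR. For Cd68 the groups nearly touched, with LC3b-/- F1 at 29.4 CPM and WT M1 at 29.3 CPM. Csf1r was at 208 to 317 CPM in WT and at 93.7 to 260 CPM in LC3b-/-, a large part of the macrophage and microglia sum. Lyz2, which lay the other way, was a further large part, at 197 to 292 CPM in WT and at 330 to 849 CPM in LC3b-/-. The sum therefore mostly reflects Csf1r and Lyz2, and its overlap between the groups says little about the other genes of the list. Endothelial and ocular surface sums were above every WT library in every LC3b-/- library, as Casp1, Casp4 and Txnip were. The part of all these cells in the levels of Casp1, Casp4, Txnip and the priming genes was not tested.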

How the data were processed

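Messenger RNA of RPE was measured in 4 WT and 3 LC3b-/- mice, 1 library per mouse. Stranded libraries of polyadenylated RNA were read as 100 bp single reads. The authors quantified the reads with salmon against the GENCODE vM26 transcripts of GRCm39 and summed them to genes with tximeta. The values they deposited are estimated counts, whole numbers after rounding and without scaling, and all 7 columns were used. Trimming and the options of salmon are not given in the sources used here, and transcript-length offsets were not used. Of 52740 identifiers, 51721 were matched to GENCODE vM39, on the same build, for symbols and coordinates.

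Testing was done in edgeR 4.0.16 under R 4.3.3. The filter filterByExpr kept 16990 of the 28835 genes with a count, libraries were scaled by TMM, and genotype was the sole term of the quasi-likelihood test. P-values were adjusted by Benjamini and Hochberg over all genes tested. Calling a gene required an adjusted p below 0.05 together with a change of 1.5-fold or more. CPM are TMM-scaled, and log2 CPM used a prior count of 2. Exact permutation tests were two-sided and enumerated all 35 assignments of the libraries. A group with no library above 3 counts was treated as at the floor, which covers counting error only. The replicates are separate mice, and the common biological coefficient of variation was 0.398. The code was tested on simulated data.

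Alternatives were DESeq2 1.42.0, voom of limma 3.58.1 with sample quality weights, library size alone or the size factors of DESeq2 within edgeR, no filter, at least 10 counts per library, a 2-fold or no fold threshold, a sex term, the females alone, a replicate block on the mouse number, leaving out single libraries, and Nlrp1b summed with its paralogs. Leaving out WT F3 and LC3b-/- F1 together was chosen after seeing the data. Near copies were sought with BLAST 2.17.0. Promoter windows came from RefSeq (GRCm38.p6), and motifs were searched as text in Python 3.11.15, the NF-kB-type letters being chosen after a looser form matched too many windows. Figures were drawn with matplotlib 3.10.9.

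The members and all gene and marker lists were chosen with earlier results of these data known. Genes named were the 10 members, Il1b, Il18 and Gsdme, the 10 pathway genes with the smallest unadjusted p, and for each member tested the protein-coding gene with the highest Pearson r over the libraries. Casp12, Mlxip, Mlxipl, Naip1, Ninj1, Txn1, Txn2, Il1r1, Il18r1, Pydc4, Ifi205 and the single markers were named besides, after their values were seen.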

Additional observations from a re-analysis of the deposited data

Results flagged for a closer look

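Among the pathway genes, the log2 CPM of Nfkb1 in the 4 WT libraries had 1 value far from the others. The gap between WT F1 and the next library, as a share of the whole WT range, was 0.866 and exceeded Dixon's critical value for 4 samples. Nfkb1 was at 44.6 CPM in WT F1 and at 25.9, 25.0 and 27.0 CPM in WT F2, F3 and M1, and at 51.5 to 65.0 CPM in LC3b-/-. Such gaps arise by chance in a small share of groups, and many genes were examined.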

How the results depend on the processing

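No member was called in any edgeR or voom alternative, including each library left out (0 in every case), whereas DESeq2 called 3. The members with an unadjusted p under 0.05 numbered 3, against 5 with voom and 2 to 6 when single libraries were left out, 6 being without WT F1. The share of all genes under that p with voom is not given here, so the 5 cannot be read against it. The members with separate groups numbered 3, against 6 without WT F3 and LC3b-/- F1 together and 3 to 7 when single libraries were left out. Pathway genes called numbered 0, against 18 with DESeq2, 2 with voom, 1 in females only and 0 to 6 when single libraries were left out (6 without WT F1 and 4 without LC3b-/- M). Over all genes, 40 were called, against 1831 with DESeq2, 124 with voom, 78 without a filter, 197 with sex as a covariate, 96 in females only and 11 to 485 when single libraries were left out. The cause of these differences was not tested. Of single genes, Nlrp3 went to -0.01 without WT F3, with or without LC3b-/- F1, in a range of -0.01 to 0.36 over single libraries left out. Pycard went to -0.39 without LC3b-/- F1 and to -0.60 without that library and WT F3, in a range of -0.39 to 0.98 over single libraries. Nek7, at 0.00, was 0.04 with library size alone, 0.01 with at least 10 counts in every library, 0.09 without WT F1, 0.04 without LC3b-/- F1 and 0.04 without LC3b-/- F3, in a range of -0.12 to 0.09. With the replicate block, on the mouse numbers F1 and F3 that both genotypes use, 0 members, 0 pathway genes and 0 genes in all were called. In that fit 4 members had an unadjusted p under 0.05, and the share of all genes is not given here. Deviations of libraries with the same number correlated at 0.15 and 0.24, while WT M1 and LC3b-/- F1 correlated at 0.53. With so few pairs these values cannot show what the number stands for, and the labels do not say. Genes with few counts, such as Nlrc4 and Nlrp1b, are limited by depth.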
